A study of Rattus norvegicus with 6 samples.

Results

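Thioredoxin-interacting protein (Txnip), its relatives Arrdc2, Arrdc3 and Arrdc4, the glucose-sensing transcription factors Mlxip and Mlxipl, the glucose transporters Slc2a1 and Slc2a4 and the hexokinases Hk1 and Hk2 were described in cardiomyocyte libraries labelled as transfected with siRNA against DYRK1A or with control siRNA. These 10 genes were taken by name from the 32883 annotated rows of the count table. The authors had added 10152 unannotated transcripts, and the 5 of them that overlapped a member on the same strand were included, which gave 15 of 43035 rows. The genes were chosen with results of the same comparison known, so their differences are given as a description with no p-value.

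Cardiomyocytes were isolated from neonatal Sprague-Dawley rats and kept in primary culture in medium with serum. The sample records give postnatal day 1, and the paper's methods give a wider age range that begins at day 1. The control group received scramble siRNA (si-NC) and the other group siRNA against DYRK1A (si-DYRK1A), a protein kinase, and RNA was collected after 48 h. Each group had 3 libraries, labelled as biological replicates. An siRNA acts on every cell type it enters, so the groups do not isolate an effect in cardiomyocytes, and in bulk RNA fewer cells of a type cannot be told apart from less RNA per cell.

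Txnip and the Arrdc proteins are alpha-arrestins, adaptors that bring membrane proteins to NEDD4-family ubiquitin ligases. Txnip also binds thioredoxin, and both Txnip and Arrdc4 are known to lower glucose uptake, in part by promoting the internalization of the transporter GLUT1 (Slc2a1). Their genes are classical targets of MondoA (Mlxip) and ChREBP (Mlxipl), which pair with Mlx, sense glucose 6-phosphate and bind carbohydrate response elements. In heart muscle GLUT1 provides basal glucose entry and is prominent around birth, GLUT4 (Slc2a4) moves to the surface in response to insulin, and hexokinases trap the sugar as glucose 6-phosphate.

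The sequences before the starts of these genes were searched for shared promoter elements, which are not values of these libraries. The choice of genes was not blind to them, since Txnip and Arrdc4 are known targets of factors that bind the carbohydrate response element. RefSeq windows of the GRCr8 assembly, from 250 bases before to 50 bases after a start, were at hand for 8 of the 10 members (10 windows), and not for Txnip and Slc2a4. The windows were searched on both strands for the consensus of the carbohydrate response element, for the E-box CACGTG and for the CCAAT box CCAAT, so that a reversed CCAAT box reads ATTGG. Arrdc4, Arrdc2 and Slc2a1 are shown as the member richest in these letters, its relative with a pair of boxes, and the transporter with no box before its start, with the matches in capitals.
Arrdc4 (chr1:131793426-131793675, minus strand): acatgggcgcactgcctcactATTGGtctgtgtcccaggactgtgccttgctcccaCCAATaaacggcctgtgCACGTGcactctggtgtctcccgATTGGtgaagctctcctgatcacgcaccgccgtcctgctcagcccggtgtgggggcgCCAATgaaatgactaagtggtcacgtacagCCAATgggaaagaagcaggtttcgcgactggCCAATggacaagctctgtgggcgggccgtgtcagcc
Arrdc2 (chr16:18635633-18635882, plus strand): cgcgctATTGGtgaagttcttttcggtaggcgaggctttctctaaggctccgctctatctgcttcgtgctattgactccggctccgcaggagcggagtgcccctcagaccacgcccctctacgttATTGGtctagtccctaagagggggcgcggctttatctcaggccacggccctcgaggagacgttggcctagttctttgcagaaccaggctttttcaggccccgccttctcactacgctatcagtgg
Slc2a1 (chr5:138002272-138002521, plus strand): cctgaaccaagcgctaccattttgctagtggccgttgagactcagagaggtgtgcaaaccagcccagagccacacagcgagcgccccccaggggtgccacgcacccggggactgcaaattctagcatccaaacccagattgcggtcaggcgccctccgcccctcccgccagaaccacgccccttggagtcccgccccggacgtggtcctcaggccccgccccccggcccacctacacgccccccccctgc

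The Arrdc4 window held 6 CCAAT boxes, whose first bases lay 36, 67, 97, 154, 194 and 229 bases before the start. At least 6, a limit taken from this window itself, stood in 14 of 33469 windows in the table (0.0418%), and at least 1 box in 37.5%. Arrdc4 was the richest of the member windows, so this share is a description only. Arrdc2 and Mlxipl held 2 boxes in each window, a number reached by 11.2% of windows. Arrdc3, Mlxip and 1 of the windows of Hk1 held 1 box, Slc2a1 held 1 that lay after the start, and Hk2 held 0. Of the 8 members with a window, Arrdc4 was also the only one with the E-box, 177 bases before its start. The E-box was present in 6.42% of windows, and Txnip and Slc2a4 could not be searched. The full carbohydrate response element matched none of the member windows and 0.332% of all windows. These counts describe letters in these windows and not sites in use.

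The libraries held 10325074 to 11921772 counts in si-NC and 10703229 to 11723974 in si-DYRK1A. Of 15513 features tested with edgeR, 2360 (15.2%) passed the threshold of 0.05 on the adjusted p and are referred to as called. Of the tested features, 1245 (8.03%) had called increases under si-DYRK1A and 1115 (7.19%) had called decreases, and the median log2 fold change of all was 0.002. Dyrk1a itself had 0 to 3 counts per library, and the unannotated transcript over it had 777, 919 and 968 counts in si-NC and 971, 851 and 944 in si-DYRK1A, a log2 difference of 0.08 ± 0.0575 (SE, 95% interval -0.04 to 0.20) with an edgeR adjusted p of 0.374. The counts thus show no decrease of the target's RNA in the libraries labelled si-DYRK1A, and each direction given here is between libraries as labelled. DYRK1A protein was assayed by the study in separate samples of cardiomyocytes given either siRNA, and the paper reports a knockdown there by immunoblotting. Those protein data were not analysed here. Cardiomyocyte markers summed to 8500 to 9348 CPM (counts scaled to a common library size) in si-NC and 10946 to 11812 in si-DYRK1A. Most of this sum was Nppa, with means of 7557 and 9782 CPM. Nppa and Actn2, 2 of 3 tested markers, were called higher, and Tnnt2 (log2 -0.14) was not called. Myh6, Myh7, Tnni3 and Myl2 were listed at 0 in all libraries. All marker sums used annotated rows only, and unannotated transcripts over the markers were not looked for. A marker listed at 0 therefore need not lack mRNA. Fibroblast markers summed to 13005 to 16748 and 11415 to 11785 CPM, although the 2 called of 5 tested, Lum and Postn, were higher, and Pdgfra was at 0. Most of this sum was Col1a1, with means of 14341 and 11113 CPM (log2 -0.37, not called). Tcf21 (0.14) and Dcn (0.25) were not called either. Endothelial markers summed to 126 to 141 and 97.8 to 109 CPM, with 2 of 4, Tek and Cdh5, called lower. Smooth muscle and pericyte markers (2.54 to 3.74 and 2.20 to 3.03 CPM, Myh11 and Acta2 at 0) and macrophage markers (121 to 131 and 112 to 124 CPM, Cd68 at 0) overlapped between groups, with 0 of 1 and 0 of 4 called. Exact two-sided permutation tests of the summed levels gave p = 0.1 for the first 3 lists, the smallest that 3 against 3 libraries allow, and p = 0.2 for the others (adjusted p = 0.167 and 0.2). The part of cell composition in the values below was not tested.

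Counts of annotated rows were read with care where an unannotated transcript lay over them. Among 6885 protein-coding genes covered over at least 50% of their span by an unannotated transcript of their strand, 77.2% stayed under 10 counts throughout and 49.5% were at 0, against 46.2% and 24.4% of 14871 genes that no such transcript overlapped. Hk1, Arrdc3, Arrdc4 and Slc2a4 had such overlaps. The transcripts held all counts of the Hk1 locus and 87.4% of those at Arrdc3, where a low count in the annotated row need not reflect little mRNA, but 0 counts at Arrdc4 and, summed over the transcript that overlapped no other gene, 0.355% at Slc2a4. The other 6 members, Txnip and Slc2a1 among them, had none.

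Per gene length, Txnip was the most abundant member. In FPKM (fragments per kilobase of gene, scaled by library, as deposited), Txnip averaged 184 ± 2.92 (SD, n = 3) in si-NC, and 3.15% of the tested features had a higher mean. Slc2a1 followed with 128 ± 6.25 FPKM, then Hk2 with 36.0 ± 0.459, the unannotated transcript over Hk1 with 19.8 ± 1.31, Mlxip with 16.5 ± 0.730 and the unannotated transcript at Arrdc3 with 9.08 ± 0.722. Arrdc2 (3.45 ± 0.257), the annotated row of Arrdc3 (3.11 ± 0.608) and Slc2a4 (3.09 ± 0.108) stood next in FPKM, and the ranges of neighbours in this trio overlapped. Mlxipl had 1.16 ± 0.0774 FPKM and Arrdc4 0.196 ± 0.0717. GLUT1 mRNA thus stood far above GLUT4 mRNA in these cultures, and MondoA mRNA above ChREBP mRNA. In si-DYRK1A the first places were exchanged, with 165 ± 1.44 FPKM for Slc2a1 and 112 ± 5.51 for Txnip, and the 3 values of one gene did not overlap those of the other in either group.

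**Figure D1:**
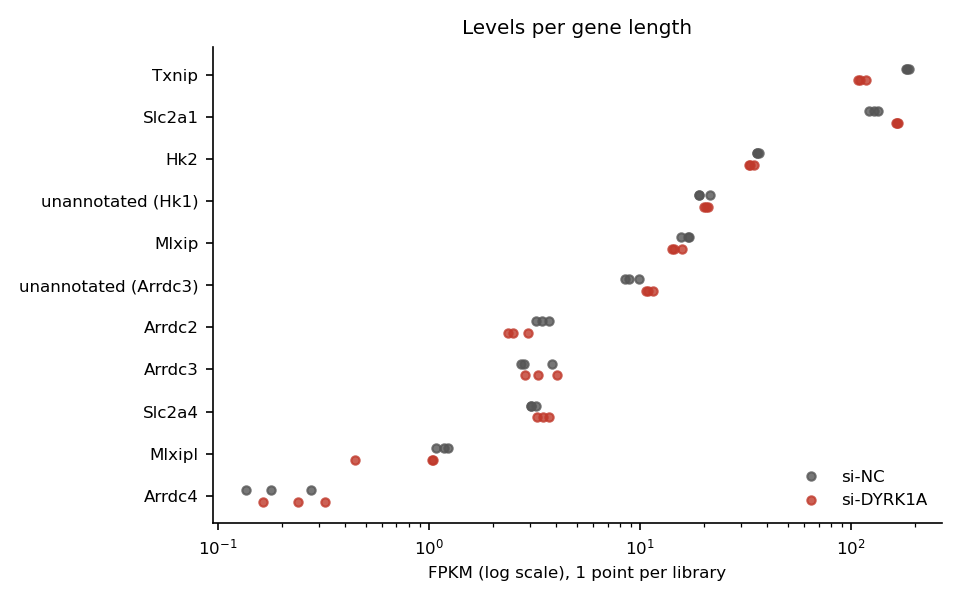
FPKM of the 11 tested rows in each library on a log scale, ordered by the si-NC mean, with si-NC in grey and si-DYRK1A in red. Txnip lay above Slc2a1 in the si-NC libraries (184 against 128 on average) and below it in the si-DYRK1A libraries (112 against 165).

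Of the 15 rows, 11 passed the filter on low counts and 3 were called, which was not read against the 15.2% of all features because the genes were chosen on this comparison. Txnip was lower, and Slc2a1 and the Arrdc3 transcript were higher in si-DYRK1A. The CPM ranges of the groups did not overlap for 7 rows, 3 higher and 4 lower, beside 31.5% of all tested features (16.2% higher and 15.3% lower). The median log2 fold change of the 11 rows was 0.06. The rows thus lay on both sides of 0, those of the alpha-arrestins included.

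**Figure D2:**
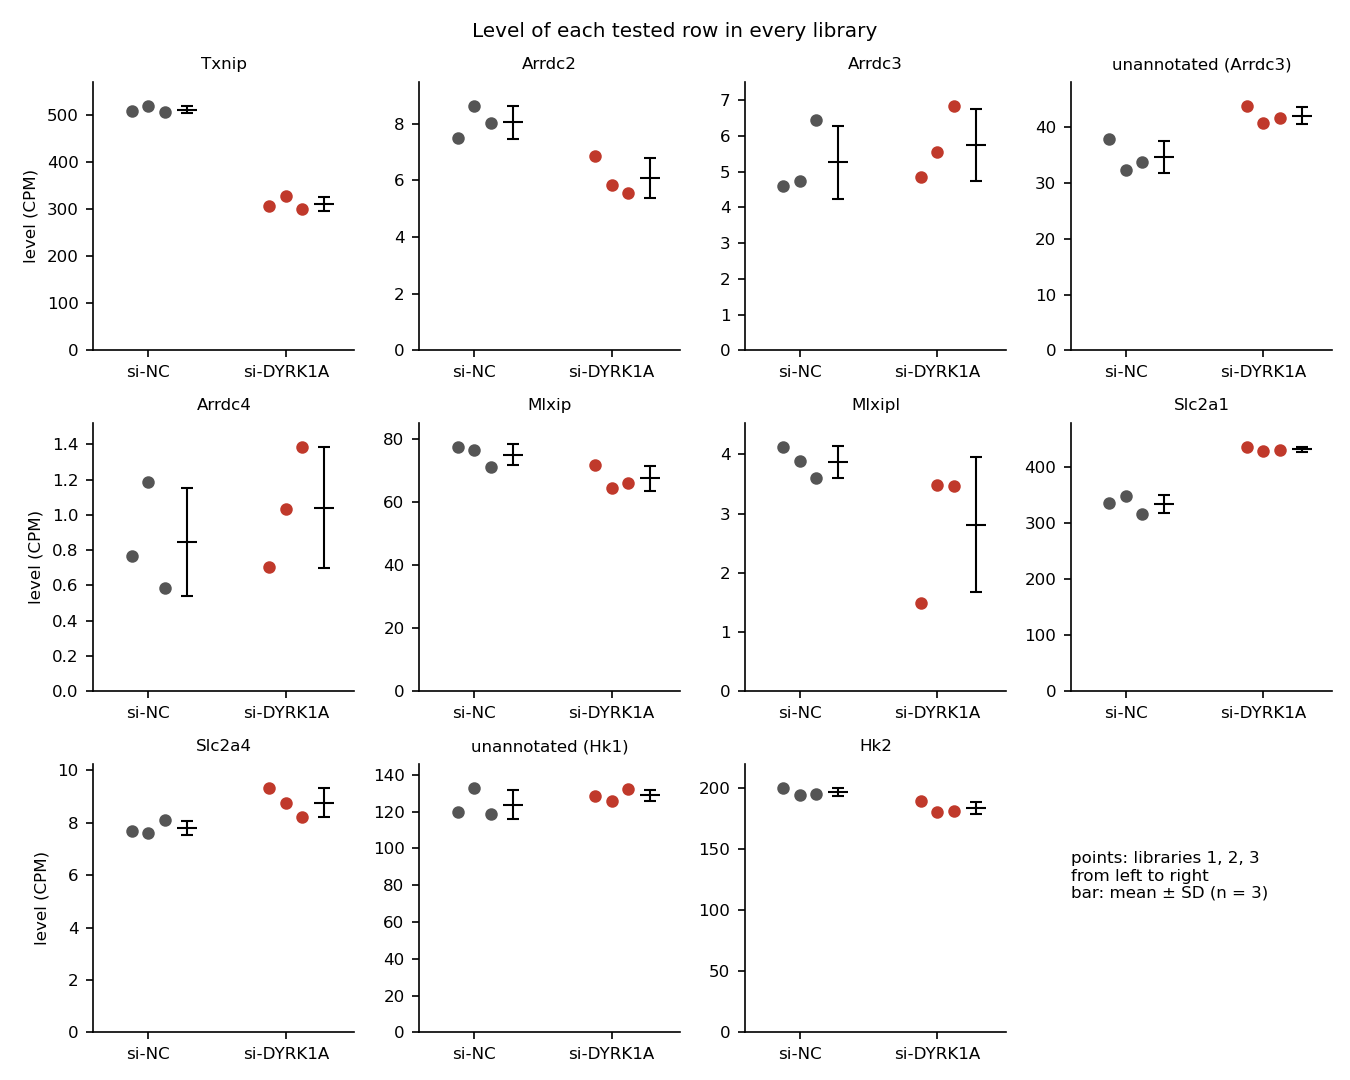
CPM of each tested row in every library, with axes from 0, points for replicates 1, 2 and 3 from left to right, and bars for the mean ± SD (n = 3). The groups were apart in Txnip (505 to 518 against 299 to 328) and Slc2a1 (317 to 349 against 428 to 435), and overlapped in Arrdc3, Arrdc4, Mlxip and the Hk1 transcript.

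Txnip (ENSRNOG00000021201, Rnor_6.0 chr2:198683159-198686974, plus strand) had 508, 518 and 505 CPM in si-NC and 305, 328 and 299 CPM in si-DYRK1A. All 3 si-DYRK1A libraries lay well below all 3 si-NC libraries, and the replicates of a group were close to each other. The means were 511 ± 6.92 and 311 ± 15.04 CPM, a ratio of 0.609 and a log2 fold change of -0.72 ± 0.0442 (SE, 95% interval -0.81 to -0.62). It rested on 3459 to 6129 counts per library and stayed between -0.76 and -0.69 over the fits that omitted 1 library, with the call kept in 6 of 6 fits.

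Arrdc2 (ENSRNOG00000019009, chr16:20352480-20356612, plus strand), an alpha-arrestin known from receptor trafficking, had 7.48, 8.63 and 8.03 CPM in si-NC and 6.86, 5.84 and 5.54 in si-DYRK1A. Its si-DYRK1A values were all lower, but with 62 to 102 counts per library the gap was small. The log2 fold change was -0.40 ± 0.167 (SE, interval -0.75 to -0.06), and the row was not called.

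Arrdc3 (ENSRNOG00000045649, chr2:8732932-8743069, plus strand), which is known to control beta-adrenergic receptors, was counted mostly in an unannotated transcript. The annotated row had 4.60, 4.74 and 6.44 CPM in si-NC and 4.84, 5.56 and 6.84 CPM in si-DYRK1A, with overlapping groups. Its log2 fold change of 0.12 ± 0.200 (interval -0.29 to 0.54) turned to -0.02 without si-DYRK1A replicate 3. The transcript (chr2:8735758-8745410), which spanned 72.1% of the gene and held 87.4% of the counts of the locus, had 37.9, 32.4 and 33.7 CPM in si-NC and 43.8, 40.8 and 41.6 in si-DYRK1A. All si-DYRK1A values of this transcript were higher, with a log2 fold change of 0.28 ± 0.0799 (interval 0.12 to 0.45). Its call was lost in 4 of 6 fits that left out a library, with values of 0.23 and 0.26 when replicate 2 or 3 of si-NC was omitted and of 0.25 and 0.29 when replicate 1 or 3 of si-DYRK1A was omitted, and it was also lost with DESeq2 and on the FPKM values. Both rows summed gave 0.26 ± 0.0743 and were called.

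Arrdc4 (ENSRNOG00000010775, chr1:129766100-129780356, minus strand), known to be induced by glucose together with Txnip, was near the limit of detection. It had 8, 14 and 7 counts in si-NC and 8, 11 and 16 counts in si-DYRK1A, and the unannotated transcript covering 97.7% of it had 0 in every library. The groups overlapped, and the log2 fold change of 0.30 ± 0.448 had an interval from -0.63 to 1.23. At this depth an increase of the size seen in Slc2a1 (0.37), or a moderate decrease, could not be told from no difference. The lower end of the interval stopped just short of the -0.72 of Txnip.

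Mlxip (MondoA, ENSRNOG00000001255, chr12:38567247-38638536, minus strand) had 77.4, 76.3 and 71.1 CPM in si-NC and 71.8, 64.4 and 66.1 in si-DYRK1A. The groups overlapped by 1 library on each side, with a log2 fold change of -0.15 ± 0.0630 (interval -0.28 to -0.02) and no call. Mlxipl (ChREBP, ENSRNOG00000046171, chr12:24590645-24619639, minus strand) had 4.12, 3.89 and 3.60 CPM in si-NC and 1.495, 3.48 and 3.46 in si-DYRK1A. The low value of si-DYRK1A replicate 1, from 17 counts, set most of its log2 fold change of -0.46 ± 0.273 (interval -1.03 to 0.11), which was -0.15 without that library, and it was not called.

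Slc2a1 (GLUT1, ENSRNOG00000007284, chr5:138154673-138182897, plus strand) had 335, 349 and 317 CPM in si-NC and 435, 428 and 430 CPM in si-DYRK1A. The si-DYRK1A libraries were all higher and lay within a narrow range. Means of 334 ± 15.9 and 431 ± 3.97 CPM gave a ratio of 1.29 and a log2 fold change of 0.37 ± 0.0441 (interval 0.28 to 0.46), on 3498 to 4966 counts per library. The value ran from 0.33 to 0.40 when each library was left out, and the call was kept in 6 of 6 fits.

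Slc2a4 (GLUT4, ENSRNOG00000017226, chr10:56552983-56558487, minus strand) had 7.67, 7.61 and 8.11 CPM in si-NC and 9.32, 8.76 and 8.22 CPM in si-DYRK1A. The groups did not overlap, but si-NC replicate 3 and si-DYRK1A replicate 3 were almost level. With 80 to 106 counts per library the log2 fold change was 0.17 ± 0.151 (interval -0.15 to 0.48), without a call. Of the unannotated transcripts there, 1 had 2 counts in all, and the other, which also overlapped other annotated genes, had 21.

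Hk1 (ENSRNOG00000046891, chr20:31912262-31956649, minus strand), the widely expressed hexokinase, was listed at 0 in every library, and all counts of its locus lay in an unannotated transcript (chr20:31910178-31980956). This transcript had 120, 133 and 119 CPM in si-NC and 128, 126 and 132 CPM in si-DYRK1A. The groups overlapped, with a log2 fold change of 0.06 ± 0.0530 (interval -0.05 to 0.17). Hk2 (ENSRNOG00000006116, chr4:113559427-113610243, minus strand), the insulin-responsive hexokinase of muscle, had 200.2, 194 and 195 CPM in si-NC and 190, 180.3 and 181 CPM in si-DYRK1A. All Hk2 values were slightly lower in si-DYRK1A, and its log2 fold change of -0.10 ± 0.0452 (interval -0.19 to -0.003) was not called.

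**Figure D3:**
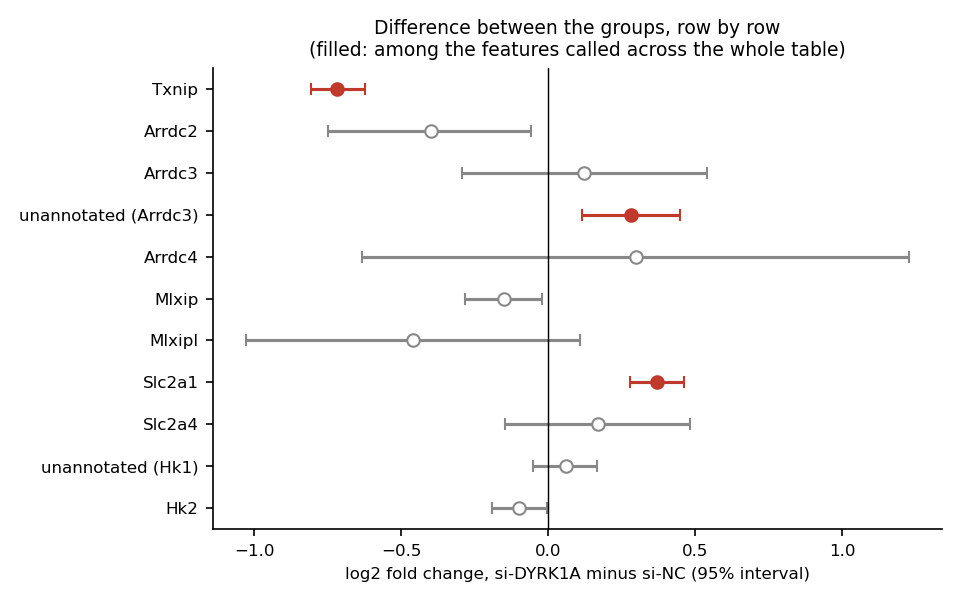
Log2 fold change of si-DYRK1A minus si-NC for each tested row with its 95% interval, filled where the row was called across all features. Txnip lay at -0.72, Slc2a1 at 0.37 and the Arrdc3 transcript at 0.28, and the remaining intervals either included 0 or ended close to it.

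Across the 6 libraries, the annotated genes whose log2 CPM ran most like that of Txnip were Gldn (Pearson's r = 0.999), Igfbp6 (0.998), Lgmn (0.997), Aldoc (0.996) and Col17a1 (0.996). At a looser limit, 375 features (2.42% of those tested) had an r of 0.95 or more and 471 an r of -0.95 or less. Over these libraries r is high for any feature that separates the groups as Txnip does. Among the members, r with Txnip was 0.876 for Arrdc2, 0.851 for Hk2, 0.758 for Mlxip and 0.593 for Mlxipl. It was -0.967 for Slc2a1, -0.897 for the Arrdc3 transcript and -0.804 for Slc2a4, and weaker for the Hk1 transcript (-0.471) and the annotated row of Arrdc3 (-0.327). Arrdc4 had too few counts for such a ranking.

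The surrounding pathways were read from 10 lists written with earlier results of these data known. Their counts and adjusted p-values are therefore given as a description. The lists held 134 genes, of which 130 were in the table and 78 were tested. Of these, 9 (11.5%) were called higher and 11 (14.1%) lower, beside 8.03% and 7.19% of all features, with a median log2 fold change of 0.00. The same shares of all features stand beside each list below. In the Mlx, Max and Mxd network, the partners and competitors of MondoA and Myc, 3 of 6 tested genes were called higher and 0 lower, with a median of 0.26. Mlx itself was not among the tested genes. The 4 untested genes of this list lay under unannotated transcripts, of which 3 were tested and none was called. These 3, named here to complete the list, lay over Max (log2 -0.32), Mga (-0.04) and Myc (0.03). Mycn rose from 32.8 ± 0.581 to 42.3 ± 2.84 CPM (log2 0.36, edgeR adjusted p = 0.00244). The repressor Mxd4 rose from 305 ± 11.4 to 367 ± 7.95 CPM (0.27, edgeR adjusted p = 0.000173). Mxd1, another repressor of the network, rose from 49.3 ± 3.14 to 59.7 ± 1.68 CPM (0.28, edgeR adjusted p = 0.00797), a call lost with limma on the FPKM values (adjusted p = 0.0609 and 0.0613).

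Other target genes of MondoA and ChREBP went both ways, with 2 of 10 higher, 3 lower and a median of -0.01. Fgf21, a hormone of the fasting and stress response, fell from 3.76 ± 0.596 to 1.46 ± 0.278 CPM (log2 -1.36, edgeR adjusted p = 0.00155). It rested on only 13 to 53 counts per library, and the SE of its log2 fold change was 0.276. Rgs16, a regulator of G protein signalling, rose from 57.1 ± 4.31 to 77.5 ± 4.32 CPM (0.44, edgeR adjusted p = 9.35e-05). The other calls were less stable. That of the fructokinase Khk (0.40) was lost when replicate 1 or 3 of si-NC or replicate 3 of si-DYRK1A was omitted (edgeR adjusted p = 0.0700, 0.0713 and 0.115), and with DESeq2 (adjusted p = 0.0828). That of the lipogenic enzyme Acly (-0.15) was lost when replicate 1 of si-NC or replicate 2 or 3 of si-DYRK1A was omitted (edgeR adjusted p = 0.0632, 0.123 and 0.0501). That of Ldha, lactate dehydrogenase (-0.12), was kept in 1 of 6 such fits and reached an adjusted p of 0.0612 and 0.0526 without si-NC replicates 1 and 2 and 0.0707, 0.1004 and 0.168 without si-DYRK1A replicates 1, 2 and 3, and 0.0519 with limma on log2(FPKM + 1).

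In the thioredoxin system, the redox partners of Txnip, 1 of 10 tested genes was called higher and 3 lower, with a median of -0.07. Txnrd1, the cytosolic thioredoxin reductase, fell from 398 ± 13.2 to 338 ± 2.83 CPM (log2 -0.24, edgeR adjusted p = 0.000460). Txnrd3 (-0.38) lost its call without si-DYRK1A replicate 3 (edgeR adjusted p = 0.0540) and with DESeq2 (0.0535). The peroxiredoxin Prdx1 (-0.16) lost it when replicate 1 or 3 of si-NC or replicate 3 of si-DYRK1A was omitted (edgeR adjusted p = 0.0579, 0.0582 and 0.183), and on the FPKM values (limma adjusted p = 0.104 for both pseudocounts). The call of Prdx4 (0.16) was kept only without si-NC replicate 3, and the edgeR adjusted p was 0.111 and 0.0759 without si-NC replicates 1 and 2 and 0.0595, 0.0700 and 0.0872 without si-DYRK1A replicates 1, 2 and 3, 0.0523 with library size only, and 0.0804 and 0.0798 with limma on the FPKM values. Thioredoxin itself (Txn1) was not tested, and the unannotated transcript over it held 8 to 15 counts per library.

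No other glucose transporter was called higher. Slc2a10 (log2 -0.36) and the inositol transporter Slc2a13 (-0.27) were called lower among 7 tested, with a median of -0.35. The call of Slc2a13 was lost without si-NC replicate 1 (edgeR adjusted p = 0.0567) and on the FPKM values (limma adjusted p = 0.0577 and 0.0570). That of Slc2a10 was kept only without si-DYRK1A replicate 3, with an edgeR adjusted p of 0.0800, 0.0907 and 0.0642 without si-NC replicates 1, 2 and 3 and 0.188 and 0.101 without si-DYRK1A replicates 1 and 2. It was also lost with DESeq2 (adjusted p = 0.117) and with limma on the FPKM values (0.126 and 0.129). Among genes of hexose phosphorylation, G6pc3, a glucose 6-phosphatase, was the 1 of 4 called (-0.19), lower and lost without si-DYRK1A replicate 1 or 2 (edgeR adjusted p = 0.0675 and 0.0852).

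Of 18 tested genes of insulin signalling and GLUT4 trafficking, 2 (11.1%) were called higher and 1 (5.56%) lower. These shares were near the 8.03% and 7.19% of all features and are not read as a result about the list. Irs2, an adaptor of the insulin receptor, rose from 76.4 ± 2.75 to 92.5 ± 2.31 CPM (log2 0.28, edgeR adjusted p = 0.00132). Stxbp3 (-0.29), which binds the fusion machinery of GLUT4 vesicles, lost its call without si-DYRK1A replicate 2 (edgeR adjusted p = 0.0633) and on the FPKM values (limma adjusted p = 0.0679 and 0.0692). Grb14 (0.19), an inhibitor of the insulin receptor, kept it only without si-DYRK1A replicate 3, with an edgeR adjusted p of 0.0512, 0.126 and 0.0867 without si-NC replicates 1, 2 and 3 and 0.193 and 0.105 without si-DYRK1A replicates 1 and 2. The Grb14 call was also lost with DESeq2 (adjusted p = 0.123), library size only (0.0809), limma-voom (0.0503) and limma on the FPKM values (0.118 and 0.1196). Of 11 tested FOXO and glucocorticoid-responsive genes, 1 (9.09%) was called higher and 1 (9.09%) lower. These shares too were near those of all features and are not read as a result about the list. Ddit4, an inhibitor of mTORC1, rose from 75.3 ± 5.12 to 90.5 ± 2.14 CPM (log2 0.26, edgeR adjusted p = 0.00358). The clock gene Per1 fell from 42.0 ± 2.03 to 33.1 ± 1.37 CPM (-0.34, edgeR adjusted p = 0.00386).

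None of 5 tested AMPK subunits and upstream kinases, 5 NEDD4-family ligases and 2 further arrestins was called. Of these arrestins, Arrb2 had a log2 fold change of 0.25 (edgeR adjusted p = 0.176) and Arrdc1, with 10 to 20 counts per library, 0.06 (edgeR adjusted p = 0.942). Arrdc5 with 0 to 4 counts and Arrb1 with 2 to 8 counts were not tested. Most untested list genes lay under unannotated transcripts. Of 29 such transcripts that were tested, 3 were called, all lower, beside 15.2% of all features called. The 3 were chosen for naming after their values were seen and are not read as a result about the lists. They lay over Arrb1, a beta-arrestin (log2 -0.48, 135 ± 1.105 to 96.3 ± 3.23 CPM), Akt2, a kinase of the insulin response (-0.19), and Lnpep, a cargo of GLUT4 vesicles (-0.56).

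**Figure D4:**
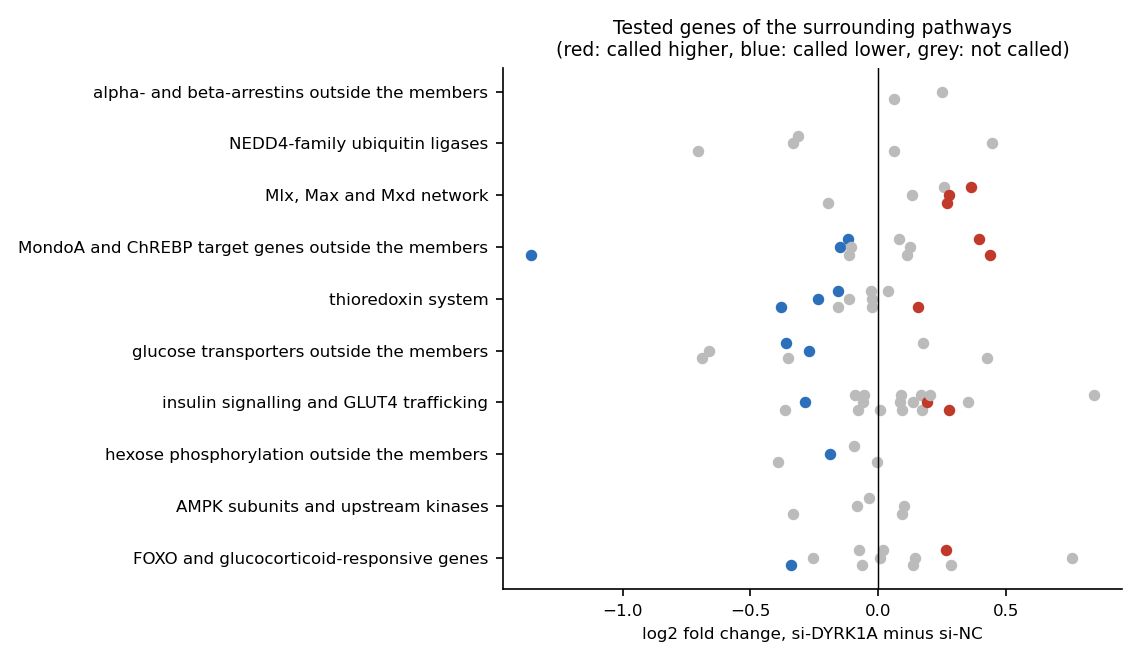
Log2 fold change of each tested gene in the 10 pathway lists, red where called higher, blue where called lower and grey where not called. Calls stood on both sides of 0, with Fgf21 farthest to the left at -1.36 and the 3 called genes of the Mlx, Max and Mxd network between 0.27 and 0.36.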

How the data were processed

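RNA-seq of 3 si-NC and 3 si-DYRK1A libraries was used, grouped by the sample labels. HISAT2 and the Rnor_6.0 genome were used by the authors, who deposited unnormalized counts per gene and FPKM values. How reads were counted, on which annotation and whether by strand, is not given in the sources used here, so antisense reads cannot be told apart. The submitters' processing notes list Bowtie 0.12.2 and mm8, a mouse build. Kits differ between the labels (TruSeq) and the methods (NEBNext).

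Counts of all features were fitted with edgeR 4.0.16 in R 4.3.3 (TMM, filterByExpr with minimum count 10 in 3 or more libraries, total 15, robust quasi-likelihood test, two-sided, Benjamini-Hochberg, threshold 0.05). CPM are TMM-scaled. Alternatives were DESeq2 1.42.0, RLE, upper-quartile and library-size scaling, other count filters, a replicate block, limma 3.58.1 (voom, or log2(FPKM + 1) and log2(FPKM + 0.1) with FPKM above 0.5 in 3 libraries), summing a gene with the unannotated transcript over it and leaving out each library. Scripts were tested on simulated data. Members and lists were chosen with earlier results of these data known. Beside members and Dyrk1a, the text names up to 3 called genes per direction and list. It also names uncalled and untested genes of lists of up to 5, and the 5 annotated genes most like Txnip. Markers from the cell type lists are named too, as are Mlx and Txn1, the partners of MondoA and Txnip. All other naming is marked. Precision is limited by counts per library.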

Additional observations from a re-analysis of the deposited data

How the results depend on the processing

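Txnip and Slc2a1 were called in the same direction under every alternative run. Of 182 recomputed member fold changes, 181 had the same sign, the exception being the annotated row of Arrdc3 (-0.02 without si-DYRK1A replicate 3, and -0.02 to 0.29 over the libraries left out). For the 22 named list genes, each under 17 alternatives, 315 of 374 values kept sign and call, 57 lost the call and 2 reversed, both Arrdc1 (-0.11 without si-NC replicate 1 and -0.15 without si-DYRK1A replicate 3, with 0.22 as the highest value). Features called numbered 1571 with DESeq2, 1199 on log2(FPKM + 1) and 1180 on log2(FPKM + 0.1), and 1614 to 2210 with a library left out, against 2360. Pathway genes called numbered 12 and 13 on the FPKM values and 13 to 19 with a library left out (13 without si-NC replicate 1 and without si-DYRK1A replicate 2), against 20. With the unannotated transcripts over untested list genes, an alternative chosen after seeing the data, they were 23. The cause of these shifts was not tested. The Arrdc3 level of 3.11 FPKM became 10.5 CPM per kb when its unannotated transcript was added and the sum divided by the longer length of the transcript. Replicate numbers gave no sign of pairing between the groups. Deviations of log2 CPM from the group mean of each feature correlated at 0.058, -0.026 and -0.004 between same-numbered libraries. Between libraries of unlike number the values ran from -0.055 to 0.059. With 3 libraries per group this cannot show that the samples were unpaired. The replicate block gave 2269 calls and changed the call of no member. Among the named list genes it ended that of Ldha (edgeR adjusted p = 0.0833). Among the members, depth limits Arrdc4, Mlxipl, the annotated row of Arrdc3, Arrdc2 and Slc2a4 most.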
